A study of Homo sapiens with 16 samples.

Results

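The NRF2 antioxidant genes are a named set of 10 genes taken from general knowledge of the pathway: NFE2L2, HMOX1, GCLC, GCLM, TXNRD1, TXN, GSR, NQO1, AKR1C3 and AKR1B10. They are 10 of the 18190 gene symbols on the arrays, each was measured by 1 probe, and all 10 were tested. They were followed in MCF10HER2 cells, made by transducing human MCF10A breast epithelium to over express the HER2 receptor stably. The paper calls the parent MCF10A nontransformed and MCF10HER2 transformed. All cultures grew without serum or insulin in medium with epidermal growth factor. The HER2 kinase inhibitor CP724,714 was added at 1 µM with fresh medium, and RNA came from parallel cultures every 3 h from 0 to 45 h, so the 16 arrays are 1 untreated array at 0 h and 15 treated arrays. There are no replicates, and no untreated culture later than 0 h was analysed here, so the inhibitor cannot be told apart from the fresh medium and the time in culture.

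NRF2, encoded by NFE2L2, is a transcription factor that KEAP1 holds at a low level by marking it for degradation, and that accumulates when reactive electrophiles or oxidants modify KEAP1. It then enters the nucleus, pairs with a small MAF protein and binds antioxidant response elements near genes that make glutathione, reduce thioredoxin, break down heme and detoxify quinones and carbonyls. Because NRF2 is controlled largely at the level of the protein, the level of its own transcript is a poor guide to its activity.

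The promoters of 7 of the 10 genes are held in a RefSeq table (GRCh38.p14) that gives 250 bases before and 50 bases after each annotated start. They were searched on both strands for the core of the antioxidant response element, TGACNNNGC, whose letters overlap with the AP-1 site TGACTCA. Matches lay in 3 of the 10 windows of these 7 genes, and 13.3% of all 35116 windows in the table held a match. The windows with a match belong to GCLM, which encodes the modifier subunit of glutamate-cysteine ligase, and to TXNRD1, the cytosolic thioredoxin reductase. They are shown 5′ to 3′ on the strand of the gene, cut 30 bases after the start, with each match in capitals (a match on the opposite strand reads GCNNNGTCA).
GCLM, chr1:93909401-93909680, minus strand: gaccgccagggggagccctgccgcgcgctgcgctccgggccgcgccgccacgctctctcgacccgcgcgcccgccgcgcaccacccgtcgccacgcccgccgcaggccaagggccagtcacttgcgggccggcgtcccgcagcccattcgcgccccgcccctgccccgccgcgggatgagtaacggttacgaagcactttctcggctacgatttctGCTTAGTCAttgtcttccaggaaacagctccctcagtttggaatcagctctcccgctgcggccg
TXNRD1, first start, chr12:104215529-104215808, plus strand: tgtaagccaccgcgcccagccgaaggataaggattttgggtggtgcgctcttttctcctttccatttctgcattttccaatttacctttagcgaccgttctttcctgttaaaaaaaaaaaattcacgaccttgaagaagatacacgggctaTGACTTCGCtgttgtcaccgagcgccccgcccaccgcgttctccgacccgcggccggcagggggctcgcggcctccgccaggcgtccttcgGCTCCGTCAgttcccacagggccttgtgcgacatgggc
TXNRD1, second start, chr12:104286782-104287061, plus strand: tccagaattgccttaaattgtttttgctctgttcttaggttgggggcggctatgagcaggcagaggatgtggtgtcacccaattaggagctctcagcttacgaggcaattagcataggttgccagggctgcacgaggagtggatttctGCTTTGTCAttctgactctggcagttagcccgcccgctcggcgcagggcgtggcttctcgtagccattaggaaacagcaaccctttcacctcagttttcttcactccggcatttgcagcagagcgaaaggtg
The GCLM match spanned positions -34 to -26 from the start. In TXNRD1 the matches lay at -99 to -91 and at -8 to 1 from the first start, and at -102 to -94 from the second. The windows of NFE2L2, NQO1, GCLC, TXN and AKR1C3 held no match to these letters, and HMOX1, AKR1B10 and GSR are not in the table. A match is a string of letters and was not tested for binding.

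The number of probes detected ranged over the arrays from 10363 to 11436, of 20589. Background was lower before 24 h (135.9 to 148.9, 8 arrays) than after (164.5 to 173.9, 8 arrays), so a difference between these arrays cannot be told apart from one between earlier and later hours. The 9 h and 18 h arrays were dim, with an upper quartile intensity of 397.3 and 418.4 against 553.2 to 803.7 on the others. KRT5, KRT8, KRT17, KRT18 and EPCAM, markers of breast epithelium, were detected on all 16 arrays. KRT14 was detected on 1 array and ITGA6 on none. Of the fibroblast markers COL3A1 was detected on 2 arrays and the other 3 on none. CD3D and VWF were detected on no array, but CD68, PECAM1 and, on 7 arrays, PTPRC were. Some of these markers changed over the same hours as the 10 genes: the log2 level of CD68 went from 9.10 at 0 h to its highest, 11.20, at 18 h (spline limma adjusted p = 0.000239), that of PECAM1 from 6.40 to 8.13 over the same hours (0.00077), and that of KRT17 from 11.60 at 0 h to 15.44 at 45 h (7.28e-06). The part of the cells behind these markers in the results was not tested.

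The 10 genes did not move as a block. By a smooth curve through the 16 arrays (a natural cubic spline with 4 degrees of freedom, tested in limma with Benjamini-Hochberg adjustment over all tested probes), 6 of the 10 genes changed over time at an adjusted p under 0.05: HMOX1, AKR1C3, GCLM, AKR1B10, TXN and NQO1. The same fit called 42.2% of all 12321 tested probes. The fitted range, the highest minus the lowest point of the curve on the log2 scale, had a median of 0.83 over the 10 genes against 0.61 for all tested probes. A straight line in time, tested in limma, called 4 of the 10 genes, all of them lower with time (HMOX1, GCLM, AKR1B10 and TXN), where 11.3% of all tested probes were called lower and 13.1% higher. The median linear change of the 10 genes was -0.28 on the log2 scale over 45 h, and that of all tested probes was 0.0053. The arrays measured RNA of whole cultures, so a lower signal from fewer cells with a transcript cannot be told apart from less of it in each cell.

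**Figure D1:**
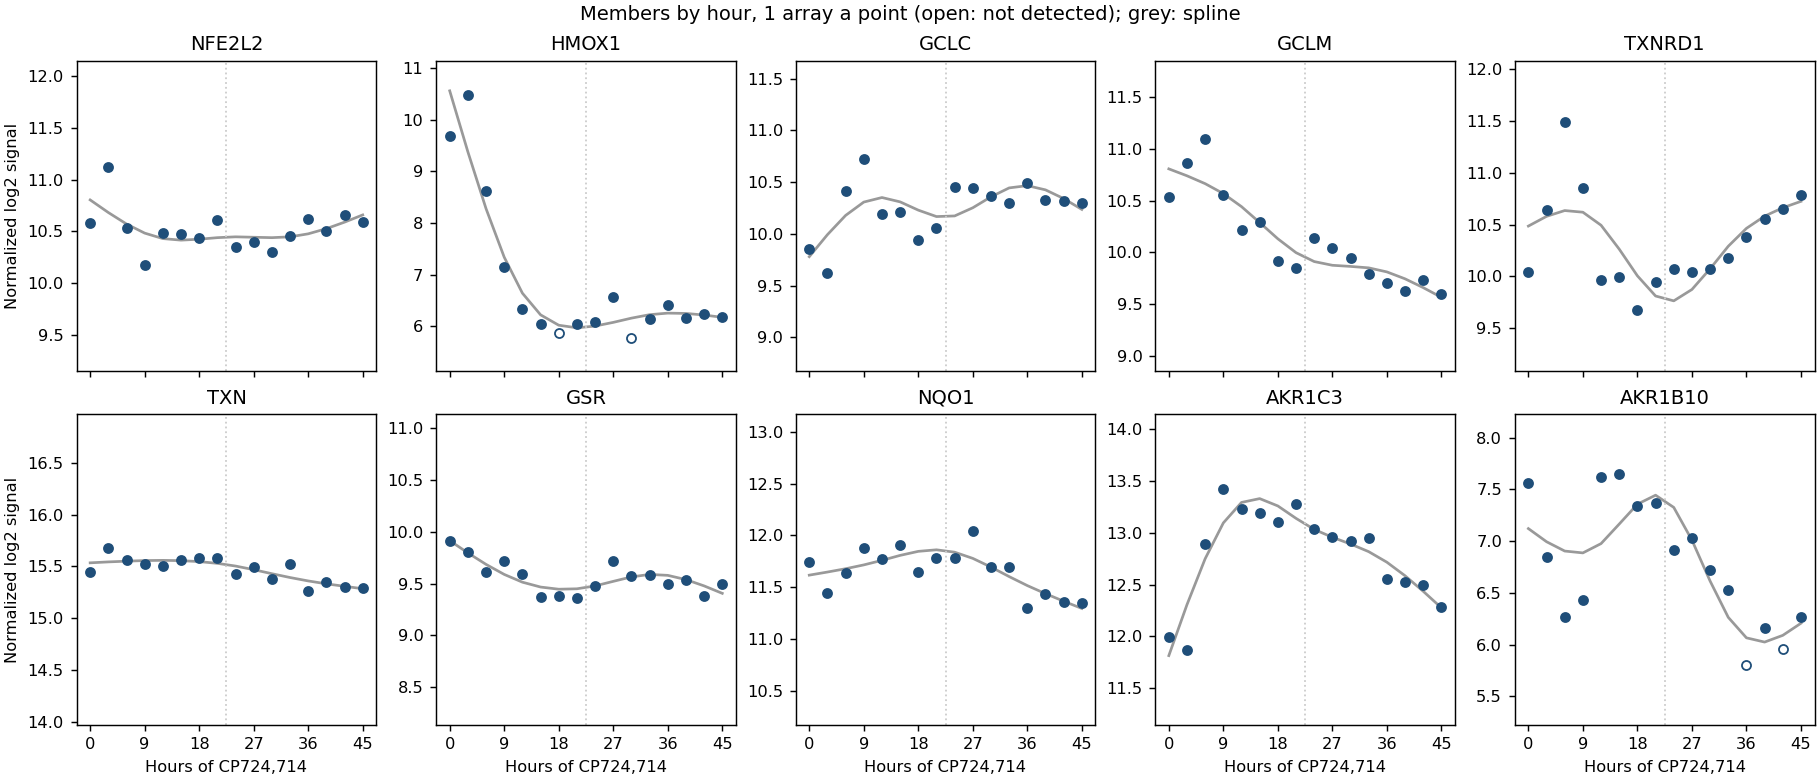
Normalized log2 signal of the 10 genes (vertical axes) against hours of CP724,714 (horizontal axes). Each point is 1 array, open points are arrays on which the probe was not detected, the grey curve is the fitted spline, and the dotted line divides the arrays of lower and higher background. HMOX1 spans 6 log2 units and the other panels 3. HMOX1 drops between 3 and 12 h, AKR1C3 climbs to 9 h and then declines, and TXNRD1 has a peak at 6 h and climbs again after 33 h.

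HMOX1, the inducible heme oxygenase that opens the heme ring to yield biliverdin, iron and carbon monoxide, had the largest change of the 10 genes. Its normalized log2 signal was 9.69, 10.48, 8.61, 7.14 and 6.34 at 0, 3, 6, 9 and 12 h. On the 11 arrays from 15 to 45 h it stayed between 5.78 and 6.57. Thus the 4 earliest arrays all lay above the 12 later ones. The array at 3 h was 1.73-fold above 0 h, and 0 h was 11.3-fold above 45 h. In the deposited intensity, before normalization, the probe read 986.5 at 0 h, 1393 at 3 h and 245.9 at 45 h. The probe was not detected at 18 h or 30 h, so its value on those arrays is only an upper bound, and on the other arrays from 12 h on it was dim. HMOX1 fell over time, by the spline (fitted range 4.58, limma adjusted p = 3.15e-06) and by the line (-3.13 over 45 h, SE 0.76, limma adjusted p = 0.0052). With weights that give less to arrays far from the line, the linear change was -0.65 and its limma adjusted p was 0.281. With the negative control moments taken from all probes, the fitted range was 2.01 (limma adjusted p = 0.000202) and the linear change -1.29 (limma adjusted p = 0.0172).

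The probes whose mean-centered course lay nearest to that of HMOX1 over the 16 arrays were those of IGFBP3, which binds insulin-like growth factors, at a root mean square difference of 0.366 on the log2 scale, SQSTM1, an autophagy receptor that also binds KEAP1, at 0.464, and HMGCS1, an enzyme of sterol synthesis, at 0.487. These likenesses are descriptions, since all points share the same arrays.

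Of the transcripts for glutathione synthesis, GCLM was called as changed over time and GCLC was not. GCLC encodes the catalytic subunit of glutamate-cysteine ligase, the enzyme that starts glutathione synthesis, and GCLM the subunit that makes it more efficient. GCLM was at 10.54, 10.86, 11.10 and 10.56 at 0, 3, 6 and 9 h, and then stayed between 9.60 and 10.29, with its lowest value at 45 h. All 4 arrays up to 9 h lay above the 12 later arrays. GCLM fell over time in the spline fit (limma adjusted p = 0.000298) and in the linear fit by 1.25 on the log2 scale over 45 h (SE 0.18, limma adjusted p = 5.13e-05). At 45 h GCLM was 1.92-fold below 0 h.

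GCLC was at 9.85, 9.62, 10.41 and 10.72 at 0, 3, 6 and 9 h, the second of these its lowest value and the last its highest. From 12 to 45 h GCLC lay between 9.94 and 10.49, and 14 of the 15 treated arrays were above 0 h. GCLC passed neither fit (spline limma adjusted p = 0.159, linear 0.36 over 45 h, SE 0.20, limma adjusted p = 0.202). Its linear change passed without the 9 h array (0.50, limma adjusted p = 0.0401). Set against 0 h, the ratio of the GCLC to the GCLM signal was 0.682 at 3 h, 1 at 6 h, 1.8 at 9 h, between 1.52 and 1.87 from 12 to 21 h, and between 1.99 and 2.78 from 24 to 45 h. This ratio was not tested.

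GSR encodes glutathione reductase, which returns oxidized glutathione to its reduced form with NADPH. It was highest at 0 h, at 9.91, and lower on all 15 treated arrays, between 9.36 at 21 h and 9.80 at 3 h. The spline fit did not call GSR (fitted range 0.51, limma adjusted p = 0.0658). Without the 27 h array, where GSR was at 9.72, the limma adjusted p was 0.0443, and it was 0.0284 for a spline with 3 degrees of freedom, 0.0496 among probes detected on all 16 arrays and 0.038 with control moments from all probes.

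The courses of the thioredoxin pair were not tested against each other. TXNRD1, which reduces thioredoxin with NADPH, was at 10.04, 10.64, 11.49 and 10.85 at 0, 3, 6 and 9 h. It was back at 9.96 at 12 h, was lowest at 18 h (9.67), and lay at 10.38, 10.55, 10.65 and 10.79 on the last 4 arrays, from 36 to 45 h. The 6 h array was 2.72-fold above 0 h and the 45 h array 1.67-fold. TXNRD1 did not pass the spline fit (limma adjusted p = 0.0505), whose curve ran well below the 6 h array, and its linear change over 45 h was 0.00 (-0.003, SE 0.35, limma adjusted p = 0.997). The spline fit called TXNRD1 without any 1 of 9 arrays (0, 6, 12, 24, 27, 33, 36, 39 or 42 h), at limma adjusted p from 0.00384 to 0.0494. It also passed with array weights (0.000537), cyclic loess (0.0414), the background groups of arrays as a block (0.0436), probes detected on all 16 arrays (0.0491) and control moments from all probes (0.048).

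TXN, thioredoxin itself, moved little. It was at 15.45 at 0 h, highest at 3 h (15.68) and lowest at 36 h (15.26). TXN fell by 0.29 on the log2 scale over 45 h (SE 0.07, limma adjusted p = 0.00659), and at 45 h it was 1.12-fold below 0 h. With the background groups of arrays as a block the linear change was -0.16 (limma adjusted p = 0.573). The spline call (limma adjusted p = 0.0208) was lost under that block (0.497) and without the 42 h array (0.0548) or the 45 h array (0.0573).

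Of the quinone and carbonyl reductases, AKR1C3 rose and then declined. AKR1C3 encodes an aldo-keto reductase that acts on steroids, prostaglandins and reactive carbonyls. On the log2 scale it was at 11.99, 11.87, 12.89, 13.42 and 13.23 at 0, 3, 6, 9 and 12 h. From 15 to 33 h its level held between 12.92 and 13.28, and it was at 12.55, 12.52, 12.50 and 12.28 at 36, 39, 42 and 45 h. The 9 h array was 2.68-fold above 0 h, and 10 treated arrays, those from 6 to 33 h, were 1.7-fold or more above 0 h. AKR1C3 changed over time (fitted range 1.52, limma adjusted p = 7.35e-05) and its linear change missed the threshold (-0.07 over 45 h, SE 0.34, limma adjusted p = 0.91). With array weights AKR1C3 fell by the line (-1.05, limma adjusted p = 0.000425). The closely related AKR1C1 was detected on no array and no symbol matched AKR1C2. Because the probe sequences were not used here, it cannot be said how far transcripts of those near-identical genes reach the AKR1C3 probe. The courses nearest to AKR1C3 were those of CXorf33 (root mean square difference 0.155), CUTC (0.16) and TPCN2 (0.167).

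AKR1B10, a reductase of aldehydes and retinal, had a signal close to the detection limit. Its signal was 7.56, 6.85, 6.27 and 6.43 at 0, 3, 6 and 9 h, then 7.34 to 7.65 from 12 to 21 h and 5.80 to 7.03 from 24 to 45 h. It was not detected at 36 h or 42 h, so those values are upper bounds. AKR1B10 changed over time (spline limma adjusted p = 0.00639) and fell in the linear fit by 1.14 on the log2 scale over 45 h (SE 0.37, limma adjusted p = 0.031). The linear call was lost without the 0, 36, 39, 42 or 45 h array, at limma adjusted p from 0.0562 to 0.0858, and both calls were lost with the background groups as a block (0.0855 for the spline, 0.758 for the line). With the negative control moments taken from all probes its fitted range was 0.20 in place of 1.42 (limma adjusted p = 0.016).

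NQO1, the quinone reductase commonly used as a readout of NRF2, varied over a narrow range. It was at 11.74 at 0 h, at 11.44 at 3 h and between 11.64 and 12.04 from 6 to 33 h. On the last 4 arrays, from 36 to 45 h, it lay between 11.30 and 11.43, below every earlier array. The spline fit called NQO1 (fitted range 0.57, limma adjusted p = 0.0248), and the linear fit did not (-0.33 over 45 h, SE 0.16, limma adjusted p = 0.145, and 0.0394 without the 3 h array). With array weights NQO1 fell by the line (-0.67, limma adjusted p = 0.00121). The spline call was lost without the 39 h array (0.0549), the 42 h array (0.0744) or the 45 h array (0.0581).

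NFE2L2 itself was at 10.58 at 0 h, highest at 3 h (11.12) and lowest at 9 h (10.17), with a span of 10.30 to 10.66 over the 12 arrays from 12 h on. The 3 h array was 1.46-fold above 0 h, the 45 h array differed from 0 h by 0.01 on the log2 scale, and no array reached 1.7-fold in either direction. NFE2L2 passed neither the spline fit (limma adjusted p = 0.374) nor the linear fit (limma adjusted p = 0.782).

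Several of these genes had their highest array early, though not at the same hour. The highest array was at 0 h for GSR, at 3 h for NFE2L2, HMOX1 and TXN, at 6 h for GCLM and TXNRD1, and at 9 h for GCLC and AKR1C3. For AKR1B10 it came at 15 h and for NQO1 at 27 h. Each of these is 1 array and the 9 h array is one of the dim ones, so the order of the peaks has no error attached. By the fold threshold of the study's methods, 1.7-fold, here set against 0 h and with no test, 6 of the 10 genes were past it at some time, as were 45.6% of all tested probes. GCLC, HMOX1, TXNRD1 and AKR1C3 were past it upward (24.9% of all tested probes) and HMOX1, GCLM and AKR1B10 downward (23.1%), HMOX1 being counted in both directions.

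**Figure D2:**
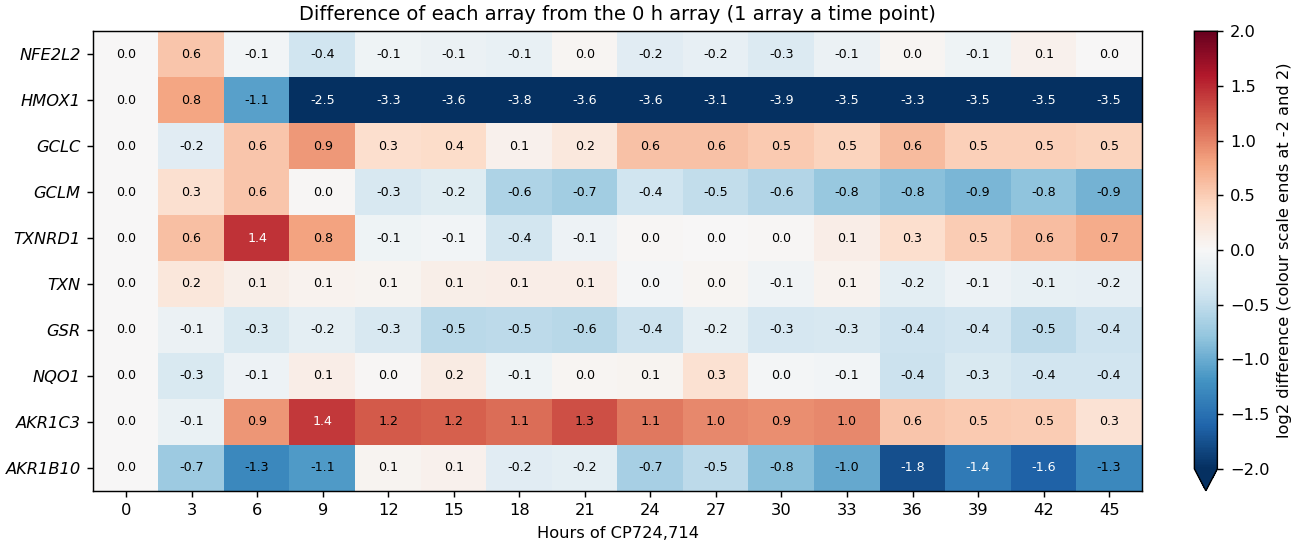
Difference of each array from the 0 h array in log2 units (colour and printed value) for the 10 genes (vertical axis) at each hour of CP724,714 (horizontal axis), 1 array a column. HMOX1 is between -3.91 and -3.12 from 12 h on, AKR1C3 is above 0 h from 6 h on, and GSR is below 0 h on every treated array. The colour scale ends at -2 and 2, so HMOX1 is darker than the scale can show from 9 h on.

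Separate slopes for the arrays from 0 to 21 h and from 24 to 45 h, each with its own level, leave out any shift between the arrays of low and high background. From 0 to 21 h, HMOX1 (-4.75 over 21 h, SE 0.55), GCLM (-1.03, SE 0.21) and GSR (-0.56, SE 0.15) fell and AKR1C3 rose (1.33, SE 0.28), where limma called 14.9% of all tested probes lower and 15.3% higher. The limma adjusted p was 3.97e-05 for HMOX1, 0.00174 for GCLM, 0.00817 for GSR and 0.00214 for AKR1C3. From 24 to 45 h this fit called only NQO1 of the 10 genes lower (-0.64, SE 0.16, limma adjusted p = 0.0308) and none higher, with 2.40% of all tested probes called lower and 2.43% higher. The earlier and later arrays share a single error estimate in this fit, so a gene not called was not shown to be flat.

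The slope itself differed between the earlier and the later arrays for 4 of the 10 genes, as it did for 24.7% of all tested probes. The later slope was the higher one for HMOX1 (difference 4.79 over 21 h, SE 0.78, limma adjusted p = 0.000907) and TXNRD1 (1.72, SE 0.53, limma adjusted p = 0.0257). It was the lower one for AKR1C3 (-2.09, SE 0.39, limma adjusted p = 0.00196) and NQO1 (-0.81, SE 0.23, limma adjusted p = 0.0167). The TXNRD1 call was lost without the 18 h array (0.0592) or the 45 h array (0.0676). AKR1B10 missed the threshold with all arrays (-1.55, limma adjusted p = 0.0646) and passed it without the 0 h array (-2.24, 0.0061) or the 9 h array (-1.49, 0.049). GCLM passed without the 0 h array (0.89, 0.0141).

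Fitted alone, the later arrays gave a smaller SE of the slope than the earlier ones for all 10 genes, and more calls. In the fit of the later arrays TXNRD1 rose by 0.81 on the log2 scale over 21 h (SE 0.11, limma adjusted p = 0.000246) and NFE2L2 by 0.31 (SE 0.11, limma adjusted p = 0.0485), with 12.3% of all tested probes called higher. AKR1C3 (-0.76, limma adjusted p = 0.000196), NQO1 (-0.64, 0.00292), GCLM (-0.53, 0.00426) and AKR1B10 (-1.02, 0.00848) fell, with 13.0% of all tested probes called lower. The slope of HMOX1 there was 0.04 (SE 0.23, limma adjusted p = 0.916). The earlier arrays alone called HMOX1 (0.00816) and GCLM (0.0355) lower and AKR1C3 (0.0359) higher, with 5.54% and 6.02% of all tested probes called in these directions, but no longer GSR (-0.56, limma adjusted p = 0.0836).

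**Figure D3:**
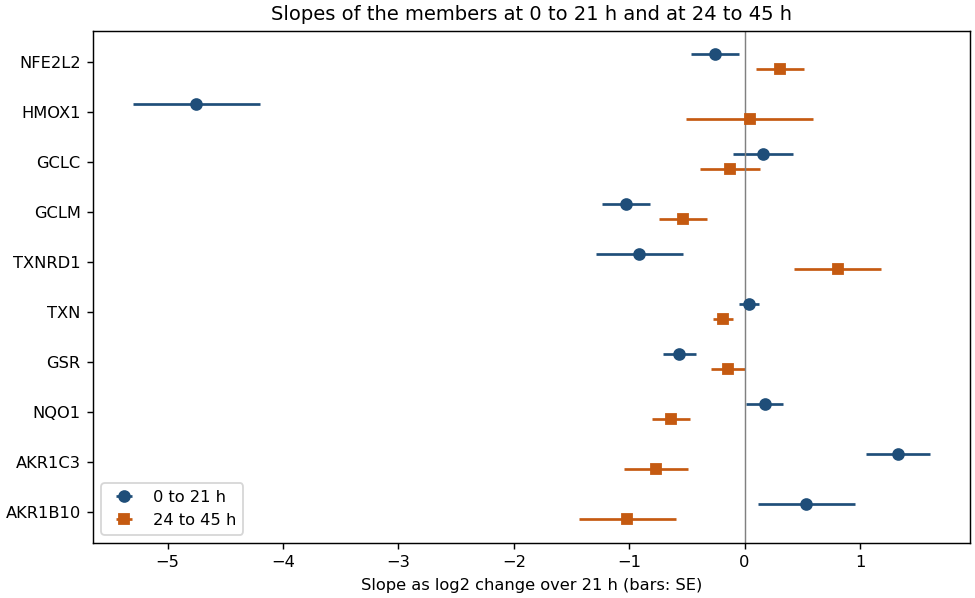
Slope of each of the 10 genes (vertical axis) as log2 change over 21 h (horizontal axis), from 0 to 21 h (circles) and from 24 to 45 h (squares), with bars of 1 SE from the joint limma fit. HMOX1 stands apart at -4.75 on the earlier arrays and 0.04 on the later ones. All genes but GCLM and GSR, TXNRD1 and AKR1C3 among them, lie on opposite sides of 0 in the earlier and later arrays.

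Beyond these 10 genes, 7 lists of regulators and enzymes around NRF2 held 85 genes, of which 83 had a probe and 70 were tested. Over time 42 of the 70 changed by the spline fit, 60%, against 42.2% of all tested probes. By the linear fit 12 of the 70 rose and 20 fell, where 13.1% of all tested probes were called higher and 11.3% lower. The lists were drawn from general knowledge with earlier results of these data known, and none was tested as a set. Each gene stands in them by its tested probe of highest mean signal, while the share over all tested probes takes in every probe. The shares of the lists are therefore only descriptions.

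Of the genes that supply NADPH, PGD, a dehydrogenase of the pentose phosphate pathway, and ME1 and IDH1, the cytosolic malic enzyme and isocitrate dehydrogenase, all fell, and none of the list rose. ME1 went from 9.69 at 0 h to 8.33 at 45 h, 2.57-fold lower (linear change -1.28, SE 0.14, limma adjusted p = 3.14e-06). IDH1 went from 9.69 to 8.44 (-1.35, SE 0.24, limma adjusted p = 0.00047) and PGD from 11.67 to 10.14 (-0.94, SE 0.29, limma adjusted p = 0.0224). The linear call of IDH1 was lost with the background groups as a block (-1.57, limma adjusted p = 0.0654). PGD was lowest at 24 h (9.89), and its linear call was lost without the 0 h array (0.117) or the 3 h array (0.0645), while its spline limma adjusted p was 6.86e-06. TALDO1 (-0.01, limma adjusted p = 0.971) and TKT (0.03, 0.875), of the nonoxidative branch, passed no fit.

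Of 11 tested regulators, 5 changed by the spline fit (45.5%), a share near the 42.2% of all tested probes. SQSTM1 was at 13.00, 13.47, 12.48, 11.69 and 10.03 at 0, 3, 6, 9 and 12 h and ended at 10.65 (fitted range 3.70, limma adjusted p = 7.4e-06). GSK3B, a kinase that promotes NRF2 breakdown, was highest at 9 h (11.10) and lowest at 45 h (9.39), and fell by 1.37 on the log2 scale over 45 h (SE 0.25, limma adjusted p = 0.000582). With the background groups as a block the linear change of GSK3B was -1.73 and missed the threshold (limma adjusted p = 0.0501). NFE2L1, a relative of NFE2L2, was at 11.09, 9.94 and 11.24 at 0, 12 and 45 h (fitted range 1.21, limma adjusted p = 0.00109). KEAP1 was lowest at 0 h (8.19), above it on all 15 treated arrays and at 8.92 at 45 h (fitted range 0.73, limma adjusted p = 0.0347). The KEAP1 call was lost without the 0, 3, 42 or 45 h array, at limma adjusted p from 0.0594 to 0.248. CUL3 and BACH1 were detected on no array. NFE2L3, counted among the 5, was detected on 6 arrays, all from 9 to 27 h and those where its signal was highest. It passed the detection filter through them, so its call is no support for the list.

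In the glutathione list 9 of 15 tested genes (60%) changed over time, against 42.2% of all tested probes. By the linear fit 5 were higher and 3 lower, against 13.1% and 11.3% of all tested probes. SLC3A2, the heavy chain of the cystine transporter, was at 12.61, 13.08 and 10.45 at 0, 3 and 45 h (fitted range 2.76, limma adjusted p = 3.14e-05). Its partner SLC7A11, the light chain that carries cystine in, was at 6.43, 6.57, 7.07 and 6.43 at 0, 3, 6 and 9 h and was not detected from 12 h on, so its later values (5.23 to 5.78) are only upper bounds. It passed the detection filter through those 4 arrays. Its calls, counted among the 9, among the 3 and among the 42 of all lists, are no support for the lists. MGST2, a microsomal glutathione transferase, went the other way, from 11.46 at 0 h and 10.97 at 3 h to 13.06 at 15 h and 12.77 at 45 h (fitted range 1.94, limma adjusted p = 1.96e-05).

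**Figure D4:**
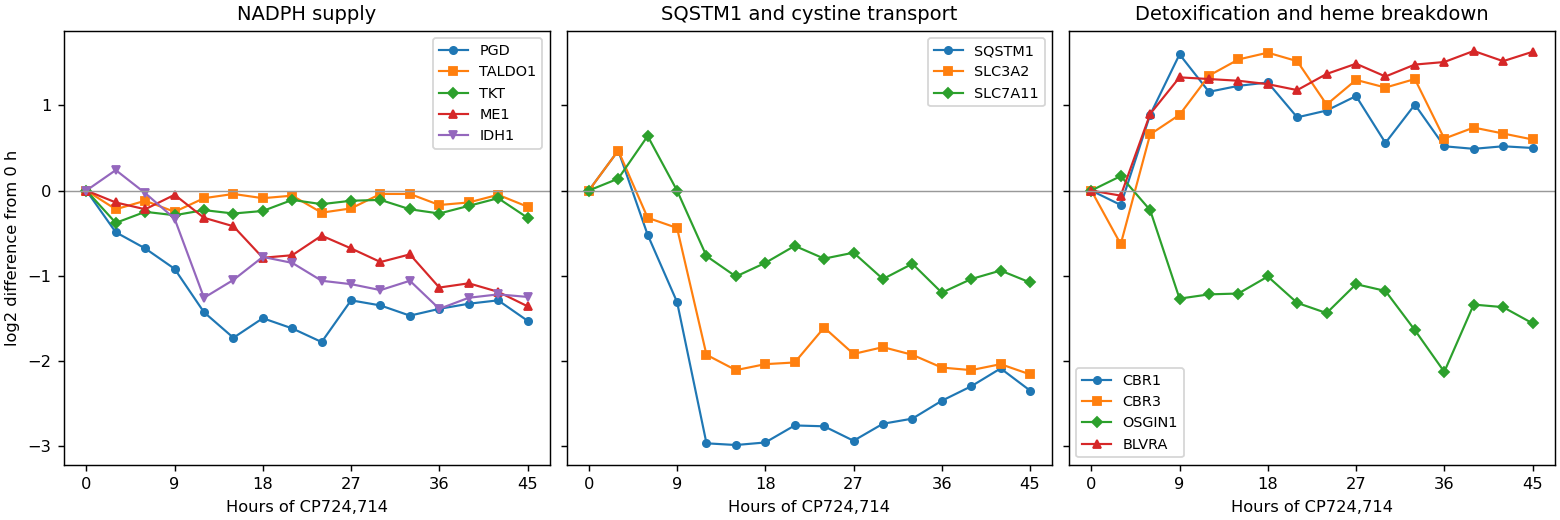
Log2 difference from the 0 h array (vertical axis) against hours of CP724,714 (horizontal axes) for genes around NRF2, 1 array a point. In the left panel PGD, ME1 and IDH1 end between -1.53 and -1.25 while TALDO1 and TKT stay near 0. In the middle panel SQSTM1 and SLC3A2 peak at 3 h and drop by 12 h, and SLC7A11 was not detected from 12 h on. In the right panel CBR1, CBR3 and BLVRA climb after 3 h, and OSGIN1 drops by 9 h. CBR1 is highest at 9 h and CBR3 at 18 h, and both are lower again by 45 h.

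In the detoxification list 13 of 18 tested genes (72.2%) changed over time, against 42.2% of all tested probes. By the linear fit 3 were higher and 7 lower, against 13.1% and 11.3% of all tested probes. The carbonyl reductases CBR3 and CBR1 had a course with an early rise. CBR3 was at 9.53, 8.90, 11.15 and 10.13 at 0, 3, 18 and 45 h (spline limma adjusted p = 0.000316). CBR1 was at 7.39, 7.22, 8.99 and 7.89 at 0, 3, 9 and 45 h (0.00246). OSGIN1, an NRF2-inducible growth inhibitor listed on the array as OKL38, was at 8.78, 7.51 and 7.22 at 0, 9 and 45 h, and fell by 1.47 over 45 h on the log2 scale (SE 0.30, limma adjusted p = 0.0016). That call was lost with the background groups as a block (-1.89, limma adjusted p = 0.0757). Of the heme and iron genes 4 of 6 changed (66.7%, against 42.2% of all tested probes). BLVRA, the biliverdin reductase that works after heme oxygenase, was at 11.25 at 0 h and 12.88 at 45 h and rose (1.26 over 45 h, SE 0.24, limma adjusted p = 0.000861), while HMOX1 fell. FTH1, the ferritin heavy chain, was at 14.06, 13.33 and 14.06 at 0, 12 and 45 h (limma adjusted p = 0.00182). ABCB6, a porphyrin transporter, changed by the spline fit (1.12, limma adjusted p = 0.0383). That call was lost without the 0, 3, 15, 21, 30, 33 or 45 h array, at limma adjusted p from 0.0505 to 0.143. It was also lost after median scaling (0.079), with array weights (0.0831) and without the detection filter (0.066).

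Of the 11 thioredoxin and peroxiredoxin genes 5 changed (45.5%), a share near the 42.2% of all tested probes. Among those called, the fitted range was 0.71 for PRDX3 (limma adjusted p = 0.0164, and 0.0792 without the 3 h array), 0.53 for PRDX1 (0.000391) and 0.52 for PRDX4 (0.00215). SRXN1, which repairs over-oxidized peroxiredoxins, was at 10.21 at 0 h, highest at 9 h (11.11) and at 10.01 at 45 h. It fell by the line (-0.64, SE 0.21, limma adjusted p = 0.0343), a call lost without the 6, 36, 39 or 45 h array, at limma adjusted p from 0.056 to 0.0826. The linear call was also lost with the background groups as a block (-0.93, limma adjusted p = 0.222). The spline fit did not call SRXN1 (limma adjusted p = 0.129). TXNIP, which inhibits thioredoxin and is named here after its values were seen, was at 13.29 at 0 h and 15.38 at 3 h, and was 3.12-fold above 0 h at 45 h, but passed neither the spline fit (limma adjusted p = 0.152) nor the linear fit (0.0611). SOD2, the mitochondrial superoxide dismutase, was at 11.44, 12.21 and 11.44 at 0, 18 and 45 h (spline limma adjusted p = 3.2e-05). CAT, catalase, was at 9.15, 8.56 and 9.44 at 0, 3 and 45 h. Its spline call (limma adjusted p = 0.0401) was lost in 12 of the 16 fits that left out 1 array, at limma adjusted p up to 0.129.

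**Figure D5:**
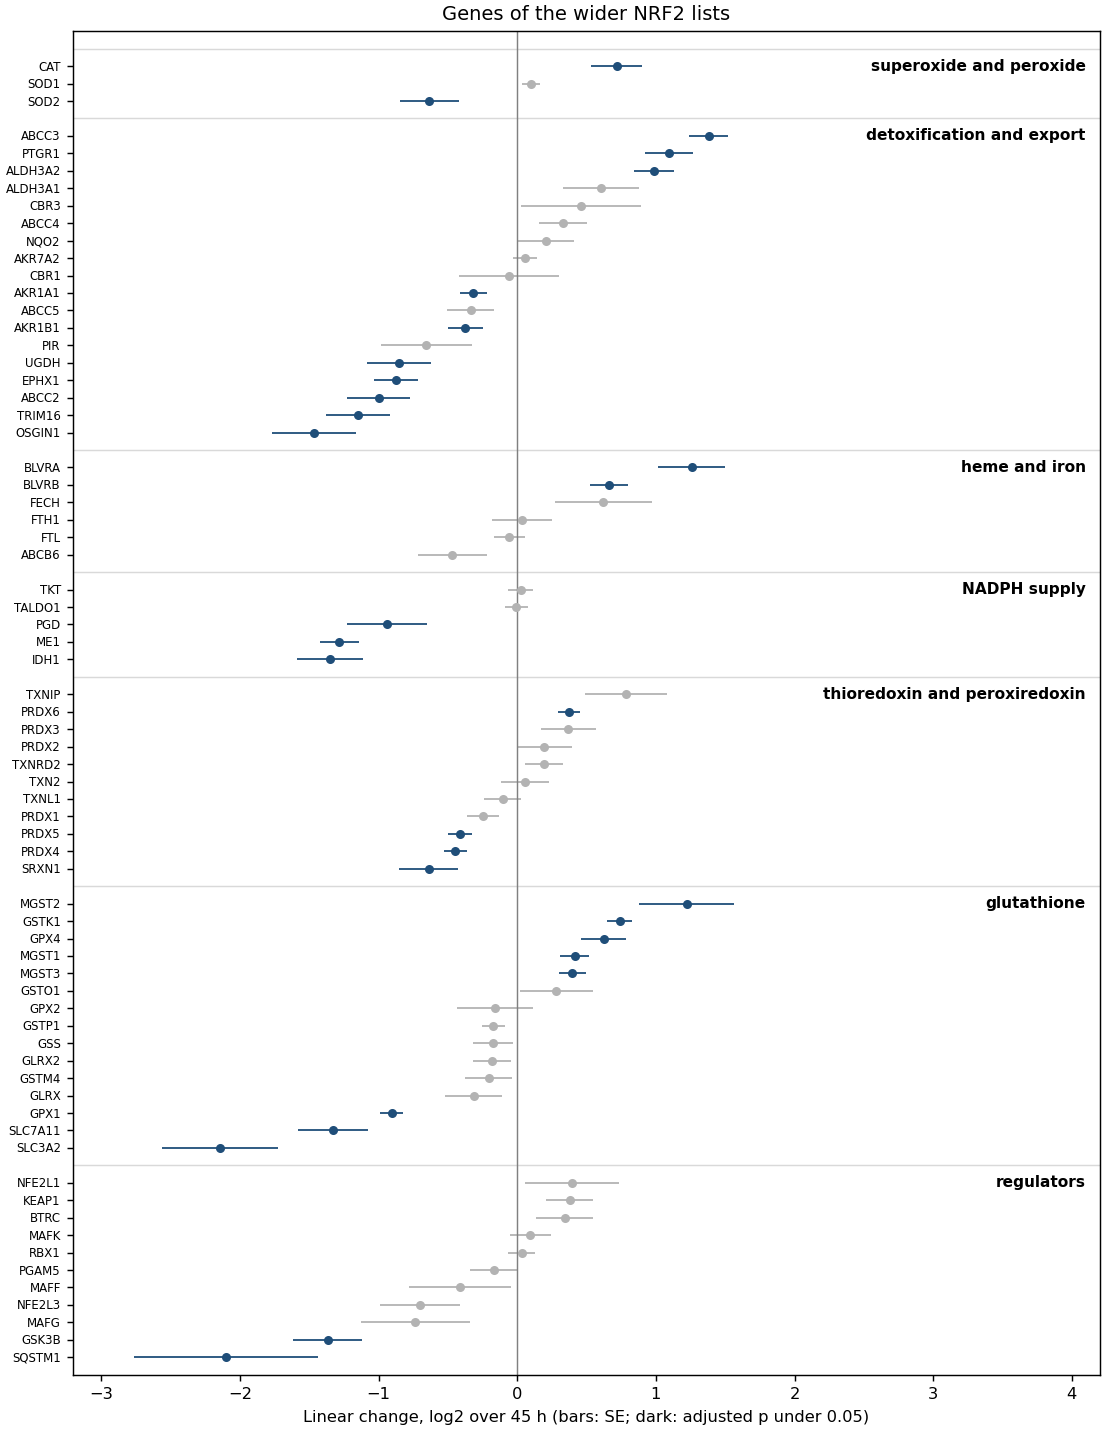
Linear change over 45 h in log2 units (horizontal axis) of tested genes of the 7 lists (vertical axis), 1 point a gene with bars of 1 SE. Dark points passed an adjusted p of 0.05 in limma. In the NADPH list the dark points all lie below 0, and the other lists with more than 1 dark point hold points on both sides except for the regulators and the heme and iron genes.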

How the data were processed

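RNA from 16 parallel cultures of MCF10HER2 cells was measured on Illumina human Ref-8 v2 beadchips, 1 array a time point. The authors deposited an intensity for each of 20589 probes on each array, without normalization between arrays (lowest intensity 98.6), and beside it a detection p-value against the negative control probes of the array. The image and background steps before that are not given in the sources used here.

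Intensities were corrected by normexp with an offset of 16, quantile normalized, as in the study's methods, and taken to log2 in limma 3.58.1 (R 4.3.3). The negative control moments were inferred from the detection p-values, which step by 1 in 708 controls. Of the probes, 1482 carried p-values off these steps, none of them one of the 10 genes, and they were left out of the inference. With them the control SD came to between 212 and 491, in place of 22.3 to 47.8. The offset pulls small signals together, so folds of dim probes come out too small. A probe was tested if its detection p was below 0.05 on at least 3 arrays (12321 of 20589). With 16 arrays as the limit of precision, the error of a fit is the scatter about a line or curve in time.

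Tests were limma fits with a mean-variance trend: a natural spline with 4 degrees of freedom, a line, and separate lines for 0 to 21 h and 24 to 45 h, adjusted by Benjamini-Hochberg over all tested probes at 0.05. The probe of highest mean signal was used for a gene. The members, the lists, the tests and the naming rule were chosen with earlier results of these data known. The rule names the 10 genes, up to 3 genes of largest fitted range among those called in each list, KEAP1, SRXN1, SLC7A11, AKR1C1 and AKR1C2, and the 3 nearest courses of the 2 genes of largest fitted range. Some items of the rule and of the lists are not reported here. Alternatives covered background, normalization, detection filter, probe choice, array weights, blocks, spline, baseline, and single arrays left out. The inference of control moments from all probes was added as an alternative after seeing the data. Promoters came from a RefSeq table (GRCh38.p14).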

Additional observations from a re-analysis of the deposited data

Results flagged for a closer look

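For 4 of the 10 genes the slope differed between the arrays from 0 to 21 h and those from 24 to 45 h by a limma test of the difference itself, which 24.7% of all tested probes also passed. The later slope minus the earlier one, as log2 change over 21 h, was 4.79 for HMOX1, 1.72 for TXNRD1, -0.81 for NQO1 and -2.09 for AKR1C3. With the negative control moments taken from all probes, the difference for HMOX1 was 1.97 (limma adjusted p = 0.0105). TXNRD1 missed the threshold after median scaling (1.40, limma adjusted p = 0.0516). The earlier and later arrays are also those of lower and higher background, and the part of that in these differences was not tested.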

How the results depend on the processing

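No paired analysis was possible because no time point has more than 1 array. Of the 10 genes, leaving out 1 array at a time gave 4 to 8 called by the spline, 3 to 5 by the line, 3 to 6 by the slope difference and 5 to 6 past 1.7-fold. Of the 70 genes of the lists it gave 39 to 44. The linear count of 4 was 2 among probes detected on all 16 arrays, a filter that leaves out HMOX1 and AKR1B10, and 2 with the background groups as a block. No other alternative moved these counts by over 1.5 times. HMOX1 and AKR1B10 are dim late in the course, which limits how low their values can be read. A value past the threshold in neither fit was given no direction. Some linear changes, scaled to 45 h, had the opposite sign to the fit of all arrays, with at least 1 of the 2 fits past the threshold. From 24 to 45 h alone NFE2L2 (0.66), TXNRD1 (1.73), SQSTM1 (1.55), PRDX3 (-0.67) and CBR3 (-1.45) passed the threshold. HMOX1 (0.092), MGST2 (-0.15) and PGD (0.34) did not pass it there. From 0 to 21 h alone AKR1C3 (2.84) and FTH1 (-1.98) passed, and TXN (0.077), AKR1B10 (1.14) and SOD2 (1.22) did not. With array weights TXNRD1 (0.90) and CBR3 (-0.92) passed, and SQSTM1 (0.32) did not. Of the genes that passed, only SQSTM1 was also called by the line with all arrays. Fewer arrays stand behind the first 2 settings; otherwise the cause was not tested. Averaging over probes could not alter the 10 genes, which have 1 probe each. The spline call of NQO1 was also lost after median scaling (limma adjusted p = 0.0689) and the linear call of AKR1B10 likewise (0.0653). So were the linear calls of PGD (limma adjusted p = 0.0592) and SRXN1 (0.133). With the background groups as a block the spline calls of KEAP1 (limma adjusted p = 0.0764), PRDX4 (0.0741) and CAT (0.265) were lost. With array weights the spline called 9 of the 10 genes, NFE2L2 (0.0314) and GCLC (0.0451) among them. Values that moved by over 1.5 times in the same direction included, with control moments from all probes, the fitted ranges of OSGIN1 (0.67), CBR1 (0.55), KEAP1 (0.38, limma adjusted p = 0.0674) and ABCB6 (0.20). With array weights they included the linear changes of AKR1B10 (-2.07), OSGIN1 (-0.76), BLVRA (0.68), IDH1 (-0.60) and PGD (-0.026, limma adjusted p = 0.936). With the background groups as a block they included those of HMOX1 (-5.04, limma adjusted p = 0.0494) and PGD (-1.62, 0.0953) and the fitted range of GSK3B (2.43).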
